A study of Mus musculus with 6 samples.

Results

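The 40 genes described here encode the mouse aminoacyl-tRNA synthetases and the scaffold proteins that hold some of them together. They were picked by a rule on RefSeq GRCm38 symbols, among 21883 protein-coding genes of the autosomes, X and Y. The rule itself uses no measured value, but it was set with earlier results of these data known. By textbook role, 19 act in the cytosol, 16 act in mitochondria, 2 (Gars and Kars) serve both compartments from 1 gene, and 3 (Aimp1, Aimp2 and Eef1e1) are scaffolds rather than enzymes. Of all 40, 11 belong to the multi-synthetase complex.

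Each synthetase joins an amino acid to its matching tRNA, the step that fixes the genetic code before the ribosome reads it. Nuclear genes supply both a cytosolic set and a separate mitochondrial set, since mitochondria translate their own messages with their own tRNAs. Several cytosolic synthetase genes are known targets of ATF4, the transcription factor of the amino acid stress response, which binds C/EBP-ATF response elements.

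H3K27ac, a histone acetylation mark of active promoters and enhancers, was mapped by CUT&RUN in primary hematopoietic stem cells from mouse bone marrow. There were 3 libraries from Ppp2ca-deficient (KO) mice and 3 from wild-type (WT) mice, to ask which sites of the mark are affected by Ppp2ca, the gene of a catalytic subunit of protein phosphatase 2A. The sources used here give neither the deleted part of Ppp2ca, the way it was deleted, the strain and age of the mice, nor the markers by which the cells were isolated. What was compared is the authors' list of called peaks per library, with 34016 to 50453 peaks in the KO and 21917 to 29945 in the WT lists. The background recovered from the lists was 0.738, 0.465 and 0.827 fragments per 200 bp in KO replicates 1 to 3, against 0.499, 0.584 and 0.498 in WT replicates 1 to 3. Of 12 stem cell marker genes, 4, 2 and 2 had a gene-end peak in KO replicates 1 to 3, against 3 in each WT library. Cd34, Gata2, Hlf, Ly6a, Mecom and Slamf1 had none in any library. Of 5 T and NK cell markers, 1 was marked in KO replicate 1 and none in the other 5 libraries. Erythroid markers were marked at 5, 3 and 4 of 6 in KO replicates 1 to 3, against 2, 3 and 1 in WT replicates 1 to 3, and granulocyte and monocyte markers at 4, 3 and 2 of 8 in the KO, against 2, 4 and 1 in the WT libraries.

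A gene was called marked where at least 1 bp of a listed peak fell within 1000 bp of its first or last annotated base, and the best of several peaks was the one with the lowest p-value. Marked synthetase genes numbered 38, 37 and 38 of 40 in KO replicates 1 to 3, against 28, 26 and 27 in WT replicates 1 to 3. Every KO library exceeded every WT library. The means were 37.7 ± 0.577 in the KO and 27 ± 1 in the WT (SD, n = 3 each), or 94.2% and 67.5% of the genes. Over all protein-coding genes the means were 42.0% in the KO and 27.5% in the WT. The ratio of KO to WT means was 1.40 for the synthetase genes and 1.53 for all genes. A peak list does not tell whether fewer cells carry the mark or each cell carries less of it.

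Peaks with a q-value up to 0.05 separated the genotypes further. At that threshold 38, 34 and 37 synthetase genes were marked in KO replicates 1 to 3, against 11, 13 and 11 in WT replicates 1 to 3. The means were 90.8% of the synthetase genes in the KO and 29.2% in the WT. Over all protein-coding genes they were 36.5% in the KO and 10.7% in the WT. The ratio of means was 3.11 for the synthetase genes and 3.40 for all genes. The q-value depends on the depth of each library. At the best peak of each marked synthetase gene, the median pileup was 16, 12 and 16 fragments in KO replicates 1 to 3, against 6, 7 and 6 in WT replicates 1 to 3. All 21 synthetase genes marked in all 6 libraries had more fragments at the best peak in every KO than in every WT library. The same count was not made over all genes, so whether it is particular to the synthetase genes was not tested. The part of these depths in the counts of marked genes was not tested.

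**Figure D1:**
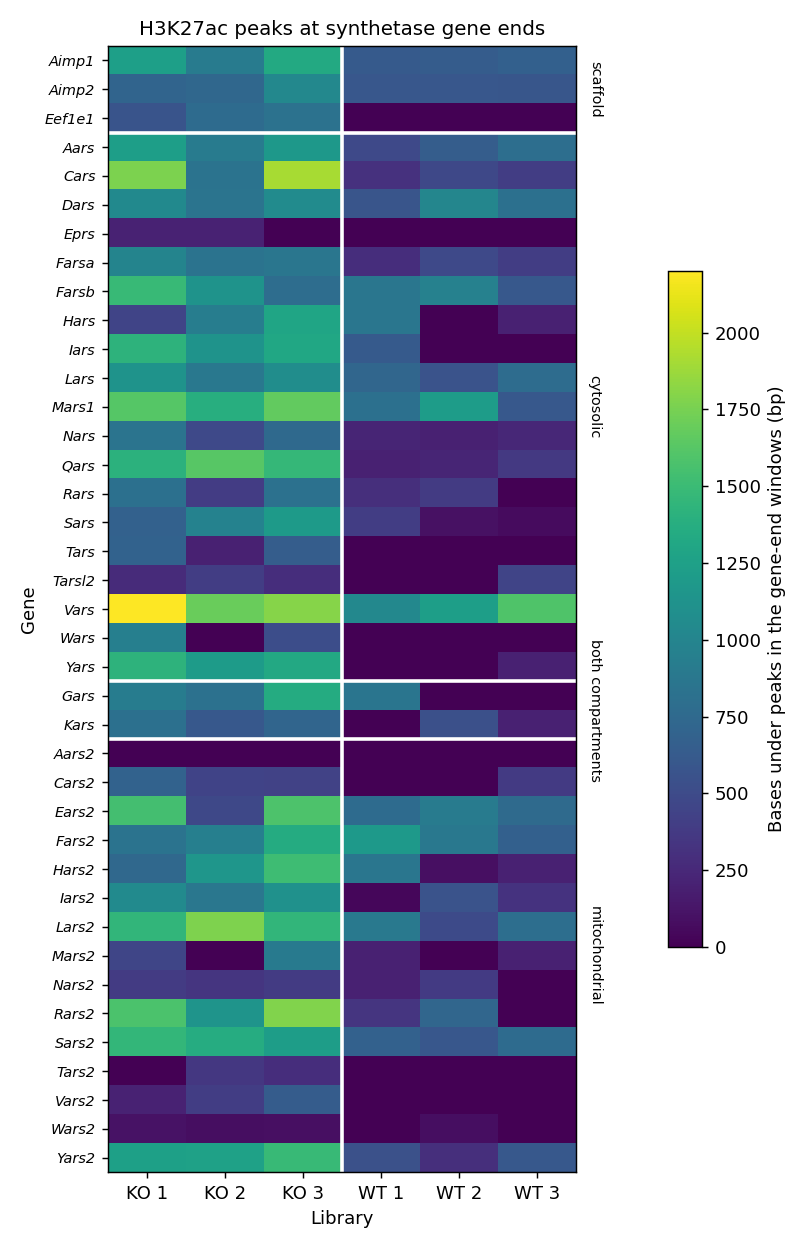
Bases under called H3K27ac peaks within 1000 bp of the gene ends, for 39 of the 40 genes (rows, grouped by role) in the 3 KO and 3 WT libraries (columns); the colour scale is in bp and starts at 0. Eef1e1, Tars and Vars2 are at 0 in all 3 WT libraries and above 0 in all 3 KO libraries, whereas Aars2 is at 0 in all 6.

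By presence of a peak, 39 of the 40 genes were marked in at least 1 library, against 50.7% of all protein-coding genes, and 21 of the 40 genes were marked in all 6 libraries, against 17.0% of all and 33.5% of genes with a peak in any library. Eef1e1, Tars and Vars2 were marked in all 3 KO and no WT library, a pattern met by 4.10% of all genes and by 8.10% of the 11084 genes with a peak in any library. Among the 39 synthetase genes with a peak in any library, 3 is close to that background and says nothing particular about these genes. No synthetase gene was marked in the WT libraries alone, a pattern found at 0.00914% of all genes. With a q-value up to 0.05 the KO-only genes numbered 12 of 40, against 12.4% of all genes and 29.0% of genes with such a peak in any library.

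By bases under peaks, 26 of 40 genes had more in every KO than in every WT library, against 25.6% of all genes and 50.6% of genes with a peak in any library. None had more in every WT library, against 0.0183% of all genes. The median difference, KO minus WT, was 492.0 bp over the 39 synthetase genes with a peak and 436.7 bp over the 11084 genes. Each of the 26 had p = 0.1 in the exact permutation test (two-sided), as small as 3 against 3 libraries allow, and 0.198 after Benjamini-Hochberg adjustment over 11084 genes. No single gene could therefore pass a threshold of 0.05, and 0 of 11084 genes did, adjusted or not.

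Of the scaffolds, Eef1e1 (chromosome 13, 38645691 to 38659028), also called AIMP3 or p18, is a small subunit of the complex that is also known for a role in the DNA damage response. Its gene-end windows held 573, 766 and 825 bp of peak in KO replicates 1 to 3, against 0 bp in all 3 WT libraries. The best peak had a fold over background of 6.03, 6.07 and 6.34 in KO replicates 1 to 3, as the authors' caller gave it, with 13, 12 and 17 fragments at the summit. In each KO library a peak with a q-value up to 0.05 lay over the start site. No other gene's windows overlapped those of Eef1e1.

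Aimp1 and Aimp2 had peaks in all 6 libraries. Aimp1 (chromosome 3, 132660498 to 132684390), the p43 scaffold, held 1243, 914 and 1340 bp in KO replicates 1 to 3, against 624, 639 and 675 bp in WT replicates 1 to 3. Aimp2 (chromosome 5, 143902704 to 143909839), the p38 scaffold, held 705, 734 and 1028 bp in the KO, against 599, 600 and 587 bp in the WT libraries. The groups did not overlap at either gene (exact permutation p = 0.1 each, adjusted 0.198). The fold of the best Aimp2 peak did overlap, at 3.89, 5.51 and 5.03 in the KO and 3.53, 3.53 and 6.10 in the WT libraries. Windows of Aimp1 overlap those of Tbck, and windows of Aimp2 those of Eif2ak1 and Pms2. Overlapping windows need not hold the same peaks: in WT replicate 1 Eif2ak1 held 0 bp, against 599 bp at Aimp2.

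Among the cytosolic enzymes Tars (chromosome 15, 11383663 to 11399658), which charges threonine tRNA, was the KO-only member. It held 695, 200 and 648 bp in KO replicates 1 to 3, against 0 bp in each WT library. These were weak peaks, with folds of 4.21, 4.30 and 3.88 and 8, 7 and 8 fragments at the summit, though each passed a q-value of 0.05. The summit in KO replicate 2 lay 680 bp downstream of the start site, where KO replicate 1 had a second, smaller peak and KO replicate 3 had none.

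At the other extreme stood Vars, Farsb, Mars1 and Qars, the cytosolic genes in all 6 libraries whose weakest library ranked best. Vars (chromosome 17, 35000907 to 35016329), which charges valine tRNA, held 2200, 1701 and 1804 bp in the KO, against 1029, 1235 and 1594 bp in the WT libraries. The fold of its best peak ran the other way, at 4.29, 4.19 and 3.67 in the KO and 4.55, 5.23 and 5.26 in the WT libraries. Its fragments at the summit were 53, 32 and 47 in the KO and 17, 22 and 23 in the WT, over a local background of 11.6, 6.88 and 12.1 fragments in the KO and 2.96, 3.40 and 3.56 in the WT. Vars shares its windows with D17H6S56E-5 and Vwa7.

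Mars1 (chromosome 10, 127296221 to 127311786), the methionine enzyme, held 1622, 1378 and 1669 bp in the KO, against 808, 1218 and 605 bp in the WT libraries. Farsb (chromosome 1, 78417958 to 78488897) encodes the beta subunit of the phenylalanine enzyme and overlapped between genotypes, with 1480, 1131 and 790 bp in the KO and 867, 971 and 610 bp in the WT libraries (exact permutation p = 0.3). Its folds did not overlap, at 7.92, 7.09 and 7.85 in the KO and 4.35, 4.0 and 5.29 in the WT libraries.

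Qars (chromosome 9, 108508005 to 108515941), the glutamine enzyme, held 1414, 1629 and 1461 bp in the KO, against 200, 230 and 367 bp in the WT libraries. Its best peak lay at its far end in all 3 KO libraries and in WT replicates 2 and 3. There the peak also lies at an end of Qrich1. In WT replicate 1, its lowest-ranking library, the best peak lay on the start side, 472 bp from that end. At the start site itself Qars held 997, 1162 and 1043 bp in the KO, against 200, 0 and 235 bp in the WT libraries.

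Of the remaining cytosolic genes, Aars, Cars, Dars, Farsa, Lars, Nars and Sars were marked in all 6 libraries and Hars and Rars in all 3 KO and 2 WT libraries. Iars, Tarsl2 and Yars were marked in all 3 KO and 1 WT library. Wars was marked in KO replicates 1 and 3 and Eprs in KO replicates 1 and 2, neither in any WT library. Of the enzymes of both compartments, Kars was marked in all 3 KO and 2 WT libraries and Gars in all 3 KO and 1 WT library. With a q-value up to 0.05, Gars and Kars were both marked in 3 KO and 0 WT libraries.

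Among the mitochondrial enzymes Vars2 (chromosome 17, 35655634 to 35667639) was KO-only. It held 209, 400 and 638 bp in KO replicates 1 to 3, against 0 bp in each WT library, and its fold was 3.61, 3.33 and 6.76 in the KO. In KO replicate 2 neither of its peaks passed a q-value of 0.05, and the best rested on 4 fragments. The window is shared with Gtf2h4.

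Lars2 (chromosome 9, 123366927 to 123462675), which charges leucine tRNA in mitochondria, had the highest fold of all 40 genes in each library. The peak ranked within the best 0.539% of every list, with folds of 10.5, 10.7 and 11.4 in the KO and 8.33, 9.90 and 8.79 in the WT libraries. That peak did not lie at the start of the gene but at its far end, between 123461705 and 123462298, with the summit 95183 bp downstream of the start site in KO replicate 1. Whether reads map uniquely there cannot be told from peak lists. Its width overlapped between genotypes, at 583, 547 and 475 bp in the KO and 487, 498 and 592 bp in the WT libraries. At the start site Lars2 held 867, 1227 and 977 bp in the KO, against 400, 0 and 200 bp in the WT libraries. There a q-value up to 0.05 was reached in 3 KO and 0 WT libraries.

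Fars2 (chromosome 13, 36117428 to 36537595), the mitochondrial phenylalanine enzyme, had the largest exact p of the genes described in full. It held 835, 952 and 1355 bp in the KO, against 1185, 885 and 671 bp in the WT libraries, which overlap (exact permutation p = 0.6). The difference of means was 133.7 bp, and without KO replicate 3 its sign turned, to -20.2 bp. Fars2, Lars2 and Vars were the 3 synthetase genes with a q-value up to 0.05 in all 6 libraries, against 4.37% of all and 10.2% of genes with such a peak in any library. The Fars2 window is shared with Lyrm4.

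Sars2 (chromosome 7, 28741957 to 28753879), the mitochondrial serine enzyme, held 1458, 1358 and 1222 bp in the KO, against 679, 599 and 767 bp in the WT libraries. The genotypes did not overlap (exact permutation p = 0.1, adjusted 0.198). Its windows are shared with Ccer2 and with Mrps12, a mitochondrial ribosome gene.

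Hars and Hars2, the cytosolic and mitochondrial histidine enzymes, adjoin each other on chromosome 18, Hars from 36766528 to 36783205 and Hars2 from 36783202 to 36792562. The peak over their shared end was 449, 929 and 1293 bp wide in KO replicates 1 to 3, with a q-value up to 0.05 in each. In WT replicates 1 and 3 it was 861 and 200 bp wide and did not reach that q-value, and WT replicate 2 had no peak there. The widths overlapped between genotypes (exact permutation p = 0.2 for the bases at Hars).

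Ears2, Hars2, Iars2 and Yars2 were also marked in all 6 libraries. Nars2 and Rars2 were marked in all 3 KO and 2 WT libraries, Cars2 and Wars2 in all 3 KO and 1 WT library, and Mars2 in 2 of each genotype. Tars2 was marked in KO replicates 2 and 3 alone, and Aars2 in no library.

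The cytosolic genes were marked at 18.3 ± 0.577 of 19 in the KO and 13.3 ± 1.15 in the WT (SD, n = 3 each), and the mitochondrial genes at 14.3 ± 0.577 of 16 in the KO and 10.7 ± 0.577 in the WT. In percent this is 96.5 in the KO and 70.2 in the WT for the cytosolic genes, against 89.6 in the KO and 66.7 in the WT for the mitochondrial genes. The gain was 26.3 percentage points for the cytosolic and 22.9 points for the mitochondrial genes, a difference of 3.40 points. This is less than the spread of the cytosolic minus mitochondrial share between libraries of 1 genotype (SD 7.25 points). It was -1.15 points without WT replicate 2 and -0.79 points over RefSeq start sites. It was 8.99 points with a q-value up to 0.05 and 9.32 points with windows of 500 bp. At gene starts alone it was 9.52 points, and with lists of equal length 10.8 points. The SD of 7.25 points belongs to all peaks at both gene ends, so it does not measure the spread under these other settings. Genes are not replicates, so the difference between the classes was given no test.

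The 11 genes of the multi-synthetase complex were marked at 10.7 ± 0.577 in the KO and 7.67 ± 0.577 in the WT (SD, n = 3 each). The 13 cytosolic or dual enzymes outside the complex were marked at 12.7 ± 0.577 in the KO and 8.67 ± 1.53 in the WT (SD, n = 3 each). The complex held 9 genes (81.8%), and the others 8 (61.5%), with more bases in every KO than in every WT library, beside 25.6% of all genes and 50.6% of genes with a peak in any library.

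**Figure D2:**
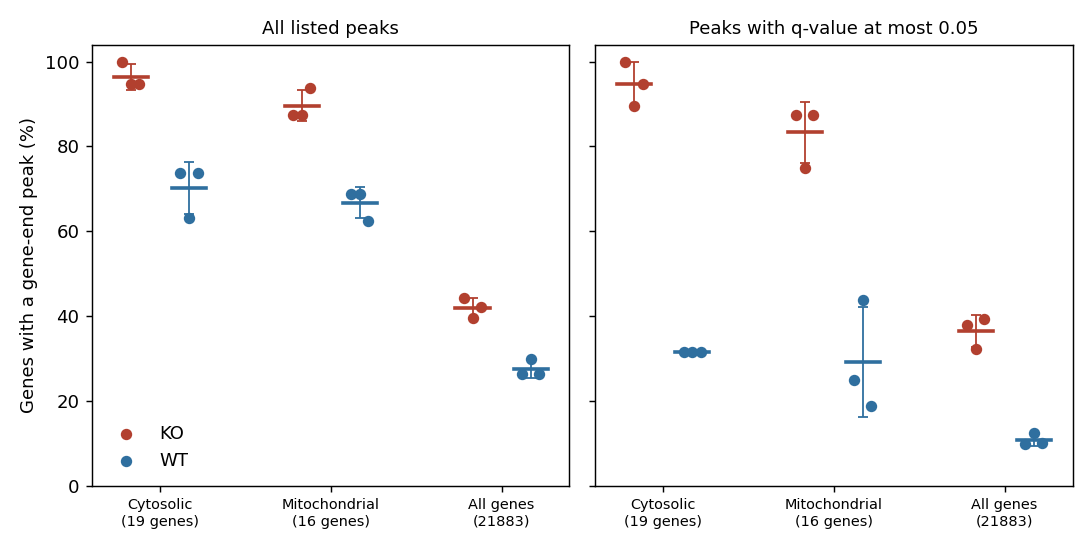
Percent of genes with a gene-end peak in each library (points; bars are means, whiskers 1 SD, n = 3) for KO and WT, in cytosolic enzymes, mitochondrial enzymes and all protein-coding genes. Left, all listed peaks; right, peaks with a q-value up to 0.05; the KO points lie above the WT points in every set.

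The gene table marks the outermost ends of a gene, which need not be where transcription mainly starts. RefSeq start sites were at hand for 31 of the 40 genes, and windows of 1000 bp on either side of them were examined as well, a choice made after the data had been seen. Cars, Hars, Hars2, Lars, Nars, Rars, Vars and Wars were among those with no entry in that table. In 6 of the 31 genes the start site lay over 600 bp inside the gene end. Marked start sites numbered 31, 30 and 31 in KO replicates 1 to 3, against 23, 19 and 22 in WT replicates 1 to 3. The means were 98.9% of the 31 genes in the KO and 68.8% in the WT. Over the 17491 genes with a start site they were 43.7% in the KO and 29.1% in the WT. KO-only genes were again Eef1e1, Tars and Vars2, against a background of 4.38% of 17491 genes, and no gene was WT-only, against 0.0114%. Marked in all 6 libraries were 15 of 31 genes, against 18.7%, and with a q-value up to 0.05 Eprs and Fars2, against 4.87%. Of the 17491 genes, 8664 had no start-site peak in any library, whereas all 31 synthetase genes had such a peak. These backgrounds are therefore lower than shares among genes with a peak would be.

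The gene-end rule had missed or trimmed the start-site peaks of several genes, named here after their values were seen. Eprs, the fused glutamate and proline enzyme of the complex (chromosome 1, 185361417 to 185428360), has its start site 1627 bp inside the gene end. There it was marked in all 6 libraries, with 1704, 1524 and 1511 bp in the KO and 274, 524 and 1299 bp in the WT libraries. Tars2, the mitochondrial threonine enzyme, also had start-site peaks in all 6 libraries, with 803, 800 and 1061 bp in the KO and 222, 553 and 200 bp in the WT libraries. Aars2, the mitochondrial alanine enzyme and the gene with no gene-end peak at all, held 441, 360 and 507 bp at its start sites in the KO, against 214, 0 and 0 bp in the WT libraries.

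Wars2 (chromosome 3, 99140107 to 99221230), the mitochondrial tryptophan enzyme, had higher KO folds than these 3 genes. At its start site the fold was 7.73, 10.0 and 8.21 in the KO libraries, with 14, 18 and 14 fragments. WT replicate 2 had a peak of fold 3.16 with 4 fragments, and WT replicates 1 and 3 had none. The summits of the KO peaks lay 141, 140 and 111 bp downstream of the start site.

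Across the 31 genes the best summit within 1000 bp of the start site lay downstream of it in 22 of 31, 19 of 30 and 22 of 30 genes in KO replicates 1 to 3. In WT replicates 1 to 3 it did so in 16 of 22, 10 of 18 and 15 of 21 genes. At the start sites 24 of the 31 genes had more bases under peaks in every KO than in every WT library, against 27.9% of the 17491 genes. That background again includes the 8664 genes with no start-site peak in any library.

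**Figure D3:**
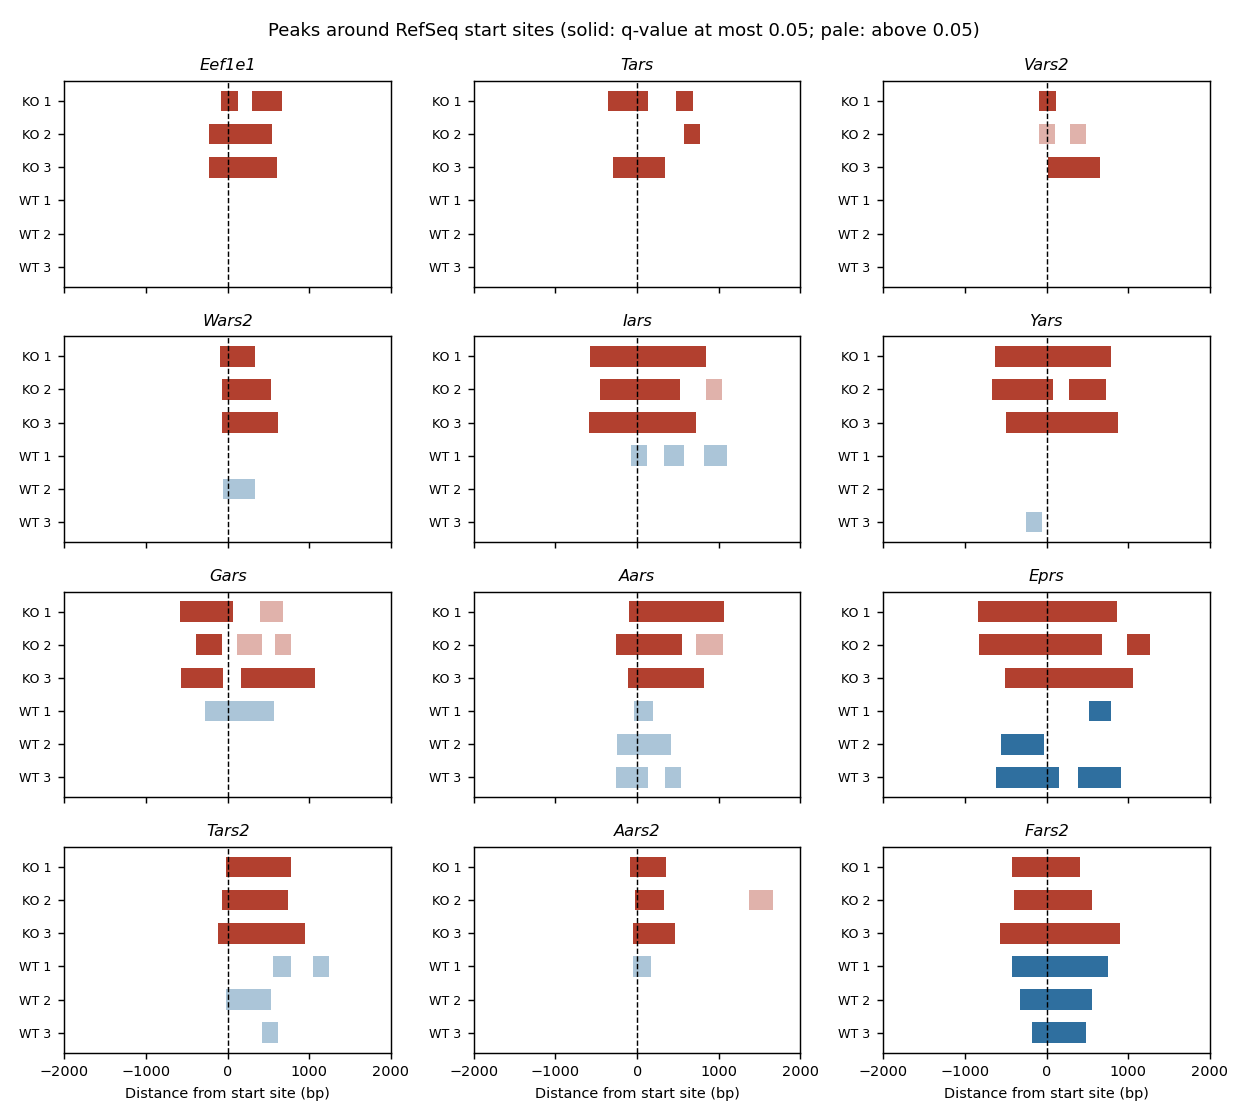
Called peaks within 2000 bp of the RefSeq start site (dashed line; positive is downstream) of 12 genes, 1 row per library, KO above WT. Solid bars have a q-value up to 0.05 and pale bars do not; Eef1e1, Tars and Vars2 have no WT bar, Eprs and Fars2 have solid WT bars in all 3 libraries.

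The promoter sequences show which of these genes carry an element of the amino acid response. The word TGATGNAA, the core of the C/EBP-ATF response element, was searched on both strands in the 300 bases from 250 before to 50 after each start site. It occurred in 5 of 31 synthetase promoters and in 4.13% of the 17491 genes. The 5 were Aars, Gars, Iars, Tars and Yars, all among the 14 enzymes of the cytosol or of both compartments, and none of the 14 mitochondrial or 3 scaffold promoters held it. These promoters are printed from RefSeq, build GRCm38.p6, 5′ to 3′ on the strand of the gene, because their H3K27ac peaks are compared next. Capitals mark the response element, read on either strand.
Tars, chr15:11399609-11399908, minus strand: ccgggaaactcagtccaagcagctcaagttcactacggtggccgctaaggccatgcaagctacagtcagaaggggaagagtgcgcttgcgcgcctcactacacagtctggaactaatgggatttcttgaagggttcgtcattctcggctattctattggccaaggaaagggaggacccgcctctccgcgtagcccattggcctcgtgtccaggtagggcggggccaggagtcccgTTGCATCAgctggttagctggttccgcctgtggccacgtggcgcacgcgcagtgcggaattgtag
Iars, chr13:49681880-49682179, plus strand: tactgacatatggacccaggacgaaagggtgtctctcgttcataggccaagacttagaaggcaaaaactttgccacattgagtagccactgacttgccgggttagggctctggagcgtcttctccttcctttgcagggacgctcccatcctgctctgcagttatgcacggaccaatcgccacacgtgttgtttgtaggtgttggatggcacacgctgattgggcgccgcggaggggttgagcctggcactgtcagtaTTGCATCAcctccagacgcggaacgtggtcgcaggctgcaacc
Yars, chr4:129189653-129189952, plus strand: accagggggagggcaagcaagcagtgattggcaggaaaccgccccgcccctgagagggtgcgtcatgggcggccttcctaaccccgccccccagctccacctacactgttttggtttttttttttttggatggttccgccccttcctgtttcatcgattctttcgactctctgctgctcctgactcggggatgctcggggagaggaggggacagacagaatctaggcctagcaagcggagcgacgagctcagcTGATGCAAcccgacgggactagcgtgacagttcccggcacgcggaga
Gars, chr6:55037751-55038050, plus strand: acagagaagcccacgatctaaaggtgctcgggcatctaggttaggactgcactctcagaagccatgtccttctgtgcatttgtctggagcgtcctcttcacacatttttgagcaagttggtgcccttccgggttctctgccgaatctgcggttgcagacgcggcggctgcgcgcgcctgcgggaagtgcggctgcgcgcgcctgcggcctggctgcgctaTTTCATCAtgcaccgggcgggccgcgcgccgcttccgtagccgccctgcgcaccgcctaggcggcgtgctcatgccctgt
Aars, chr8:111033592-111033891, plus strand: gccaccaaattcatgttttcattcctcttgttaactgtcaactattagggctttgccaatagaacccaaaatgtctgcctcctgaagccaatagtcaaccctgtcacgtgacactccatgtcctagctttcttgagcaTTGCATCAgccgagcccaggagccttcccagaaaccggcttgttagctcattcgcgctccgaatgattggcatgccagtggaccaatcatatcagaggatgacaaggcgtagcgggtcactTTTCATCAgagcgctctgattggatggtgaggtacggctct

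At the start sites of these 5 genes a q-value up to 0.05 was reached in all 3 KO and no WT library. Among the other 26 synthetase genes with a start site, 9 showed that pattern, and the background was 13.2% of the 17491 genes. Across the genome 8.99% of the 723 genes that hold the element and 13.4% of the 16768 genes that do not were KO-only at that threshold. Both shares include genes with no start-site peak. With all listed peaks, 83 of the 723 and 3191 of the 16768 were marked in all 6 libraries. Whether the element goes with the pattern among marked genes was not tested. The word was searched with results for these genes known, and a match is a description of the letters, not of binding.

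Values of Iars, Yars, Gars and Aars are given for their element, after they had been seen. At its start site Iars, which charges isoleucine tRNA, held 1419, 1131 and 1310 bp in the KO, against 621, 0 and 0 bp in the WT libraries. Yars, the tyrosine enzyme, held 1423, 1205 and 1381 bp in the KO, against 0, 0 and 200 bp in the WT libraries. Gars, the glycine enzyme, held 927, 818 and 1350 bp in the KO, against 852, 0 and 0 bp in the WT libraries.

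WT replicate 1 thus overlapped the KO libraries at Gars, while at Iars and Yars the genotypes did not overlap. Aars, the cytosolic alanine enzyme, has its start site 6064 bp inside the gene end and held 1102, 1090 and 937 bp there in the KO, against 235, 664 and 586 bp in the WT libraries. Counted from the start site, its 2 elements begin at -112 and 9, and that of Tars at -15. The Yars windows are shared with S100pbp and C77080, whereas those of Tars, Iars and Gars overlap no other gene's.

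AAGATGGC, the core of the YY1 site, occurred in 5 of 31 synthetase promoters, those of Aars2, Eef1e1, Farsa, Wars2 and Yars2, and in 3.57% of all genes. At their start sites 4 of these 5 genes reached a q-value up to 0.05 in all 3 KO and no WT library, as did 10 of the 26 without the word. Over all genes that share was 25.0% of the 624 genes with the word and 12.8% of the 16867 without it. Both shares include genes with no start-site peak. With all listed peaks, 232 of the 624 and 3042 of the 16867 were marked in all 6 libraries. Whether AAGATGGC goes with the pattern among marked genes was not tested. Counted from the start site, AAGATGGC begins at 32 in Eef1e1 and at 6 in Wars2, in both inside a called peak of each KO library. The promoters of Eef1e1 and Wars2 are printed with that word in capitals, since both had gene-end peaks in every KO and at most 1 WT library. Aars2 met this rule at its start site only.
Eef1e1, chr13:38658979-38659278, minus strand: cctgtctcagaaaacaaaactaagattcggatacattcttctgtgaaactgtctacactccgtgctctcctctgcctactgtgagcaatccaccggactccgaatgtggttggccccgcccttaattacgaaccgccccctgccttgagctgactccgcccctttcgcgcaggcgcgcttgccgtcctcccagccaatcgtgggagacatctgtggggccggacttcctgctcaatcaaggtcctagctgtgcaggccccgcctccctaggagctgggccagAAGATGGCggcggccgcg
Wars2, chr3:99140840-99141139, plus strand: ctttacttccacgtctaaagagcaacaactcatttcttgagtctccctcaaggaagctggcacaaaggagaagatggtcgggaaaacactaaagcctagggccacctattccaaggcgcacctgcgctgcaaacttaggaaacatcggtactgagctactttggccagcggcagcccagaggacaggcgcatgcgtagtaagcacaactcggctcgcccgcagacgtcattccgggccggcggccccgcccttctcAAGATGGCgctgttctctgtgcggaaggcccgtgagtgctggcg

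The ETS word CCGGAAG occurred in 11 of 31 synthetase promoters and in 12.9% of all genes, and the E-box CACGTG in 5 of 31 and 8.91%. The GC box GGGCGG occurred in 22 of 31 and 49.2%, and the NRF1 site in 0 of 31 and 1.47%. No word overlapped another at the C/EBP-ATF or YY1 sites.

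Genes that work next to the synthetases were followed as lists, chosen with earlier results of these data known. Amino acid response genes were marked at 23.7 ± 0.577 of 29 in the KO and 15.3 ± 1.15 in the WT (SD, n = 3 each), with Atf3, Chac1 and Psat1 KO-only (10.3%) and 9 in all 6 libraries (31.0%). The background, as above, was 4.10% of all genes and 8.10% of genes with a peak for KO-only, and 17.0% and 33.5% for all 6 libraries. Atf4, the factor of the response, was marked in 3 KO and 3 WT libraries, whereas Asns, the asparagine synthetase and a classic target, was marked in 1 of each. Genes of tRNA processing, modification and export were marked at 31.7 ± 2.52 of 37 in the KO and 18 ± 4.36 in the WT (SD, n = 3 each). The KO-only genes there were Adat1, Elp3, Rpp21, Thg1l and Trit1 (13.5%).

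Mitochondrial translation genes other than synthetases were marked at 27.7 ± 0.577 of 29 in the KO and 16.3 ± 2.08 in the WT (SD, n = 3 each). Their KO-only genes numbered 6 (20.7%): the factors Gfm1, Mtif2, Mtif3 and Tsfm, the formyltransferase Mtfmt and the ribosomal protein gene Mrps15. Cytosolic translation factors were marked at 26.7 ± 0.577 of 27 in the KO and 25.3 ± 1.15 in the WT (SD, n = 3 each), with 22 in all 6 libraries (81.5%) and none KO-only, in a list with little room above its WT count. With a q-value up to 0.05 the same factors were marked at 26, 27 and 27 in KO replicates 1 to 3, against 16, 17 and 19 in WT replicates 1 to 3, with Eef1a1 and Eif1a KO-only. Housekeeping genes, a comparison list, were marked at 13.0 ± 1.73 of 15 in the KO and 9.33 ± 2.08 in the WT (SD, n = 3 each), with none KO-only. More bases in every KO than in every WT library were found at 13 of 29 amino acid response, 18 of 37 tRNA processing, 19 of 27 translation factor, 22 of 29 mitochondrial translation and 5 of 15 housekeeping genes. The shares run from 33.3% for housekeeping and 44.8% for amino acid response genes to 75.9% for mitochondrial translation genes, beside 25.6% of all genes and 50.6% of genes with a peak in any library. Windows of Adat1 overlap those of Kars, as do those of Eif2ak1 and Aimp2, Ddit3 and Mars1, and Mrps12 and Sars2. The windows of these lists are therefore not wholly separate from those of the synthetase genes. The peaks need not be shared: Adat1 held 0 bp in every WT library, whereas Kars held 536 and 200 bp in WT replicates 2 and 3.

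**Figure D4:**
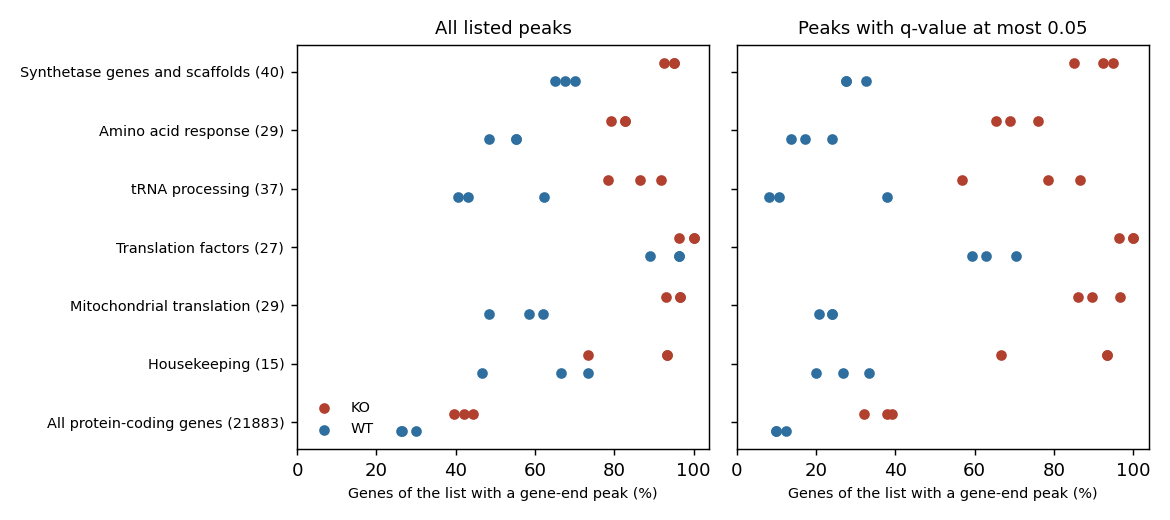
Percent of each list's genes with a gene-end peak in each KO and WT library (points; list sizes in brackets), for all listed peaks (left) and peaks with a q-value up to 0.05 (right). With all peaks the highest WT share equals the lowest KO share in the translation factors and the housekeeping genes, and lies below it in the other lists; at the q-value threshold KO points lie right of WT points in every list.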

How the data were processed

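H3K27ac CUT&RUN peak lists from 6 mouse libraries, 3 KO and 3 WT, were analysed. The submitters' processing notes name GRCm38/mm10, BWA, ChIPseeker, deepTools, HOMER, MACS2 and Trimmomatic, without their order or role; the sources used here give no versions, parameters or control library. The deposited lists are narrowPeak tables, 1 per library by their peak names, so replicates were not pooled. In them the authors give a fold (ratio) over background at the summit, a −log10 p-value, a −log10 q-value and a whole-number score. The lowest −log10 p-value was 2.005 or 2.006 in every list. These values depend on depth, so peaks were ranked and filtered only inside their own list; the score was not used. No read totals are given, so pileup and background were solved from fold and p-value (tolerance 0.002 in −log10 p).

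Gene ends came from a RefSeq table of GRCm38.p6, and start sites and promoter sequences from RefSeq for the same build; exons and UTRs were not analysed here. A peak counted from 1 bp of overlap. Single genes had an exact permutation test, two-sided, over 20 assignments, adjusted by Benjamini-Hochberg over genes with a peak in any library. Each library was taken as 1 mouse, from the series text; no label carries an animal number, so p-values measure the spread between these samples. The overlap code was tested on simulated data. Members and lists were chosen with earlier results of these data known. Genes given in full were the KO-only genes, those with no peak, the scaffolds, the Hars pair, and the 4 cytosolic and 4 mitochondrial genes in all 6 libraries that ranked highest in their lowest-ranking library, of which 1 gene is not reported here. Alternatives were stricter q-values, equal list lengths, windows of 500 and 2000 bp, summit overlap, gene starts alone, other classes for Gars and Kars, a replicate block, and 1 library left out at a time. Python 3.11.15, numpy 2.4.6, pandas 2.3.3, scipy 1.17.1 and matplotlib 3.10.9 were used.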

Additional observations from a re-analysis of the deposited data

How the results depend on the processing

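The KO minus WT difference in marked synthetase genes, 10.7 per library, was 24.7 with a q-value up to 0.05, 17.7 with a −log10 q-value of at least 5, 11.7 with lists of equal length and 9 with windows of 2000 bp. It was 9.33 both for gene starts alone and for RefSeq start sites, each over 31 genes. KO-only genes, 3 in the report, numbered 12 at the first threshold and 10 at the second, where only Eef1e1 and Wars2 were on both lists. The KO-only shares of all genes were 12.4% and 6.23% there. Genes in all 6 libraries, 21 in the report, numbered 3, 1 and, for gene starts alone, 13. Of all genes these were 4.37%, 0.279% and, for gene starts alone, 16.6% of 17491 genes. Genes with more bases in every KO library, 26 in the report, numbered 12 at a −log10 q-value of at least 5. Of all genes 7.58% did so at that threshold. The cytosolic minus mitochondrial gain, 3.40 points, was 10.8 points with lists of equal length and reversed to -1.65 points at a −log10 q-value of at least 5 and to -0.79 points at RefSeq start sites; the cause was not tested. WT-only genes numbered 0 under every alternative run.

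Leaving out 1 library at a time gave a difference of 10.2 to 11.2 genes, 4 to 6 KO-only genes, 21 to 24 genes in all libraries, 27 to 32 with more bases in the KO (of all genes 4.73 to 7.14%, 17.0 to 20.2% and 27.4 to 33.9%) and a cytosolic minus mitochondrial gain of -1.15 to 7.24 points. KO-only genes numbered 5 without WT replicate 1, adding Gars and Iars, and 6 without WT replicate 3, adding Cars2, Tarsl2 and Yars; a rule on fewer libraries is easier to meet. At Fars2 the difference ran from -20.2 bp without KO replicate 3 to 269.3 bp without WT replicate 1, with the only sign change among 240 such values for single genes; the other alternatives gave 302 values and 0 sign changes.

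No pairing by replicate number was seen in the bases under peaks: deviations of same-numbered libraries correlated at 0.0129, -0.00114 and -0.00303 over 11084 genes. These values cannot tell whether same-numbered samples were collected or processed together. With the replicate number as a block the difference was 10.7 genes and the class difference 3.40 points, by construction, and 28 synthetase genes, against 30.0% of all genes, had more bases in the KO library of every pair.

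Peaks rest on few fragments, 6 or 7 at the median WT synthetase peak, so a missing WT peak means not detected at this depth.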

Other observations

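Pars2, the mitochondrial proline enzyme, is outside the symbol rule, which has no entry for its letter, and is given here after its values were seen. It lies on chromosome 4 from 106651069 to 106655282. Its gene-end windows held 694, 708 and 411 bp of peak in KO replicates 1 to 3, each with a q-value up to 0.05, against 0 bp in all 3 WT libraries. It would have been the second KO-only mitochondrial enzyme beside Vars2.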
